A study of Homo sapiens with 20 samples.

Results

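Intronic m6A regions were taken from the merged peak set of a methylated RNA immunoprecipitation sequencing (MeRIP-seq) experiment in human bladder cancer cells. A merged region was kept when its position, the median summit of all peaks that overlapped it, lay inside the body of a protein-coding gene and in no exon of any annotated transcript. Of 43676 merged regions, 8433 (19.3%) met this rule, whereas 24555 lay in an exon of a protein-coding gene and 4202 lay between genes. The libraries analysed were 5 immunoprecipitates of T24 cells and 5 of T24R2 cells. T24 is an established urothelial carcinoma line that is sensitive to cisplatin, and T24R2 is the resistant line that was derived from it by serial exposure to cisplatin and was kept in cisplatin-containing medium. Both are labelled WT and were collected at day 3. Each condition is thus 1 cell line, and the labels do not say whether the 5 replicates of a line were separate cultures, so p-values measure the spread between libraries. The peak lists held between 17203 and 33120 peaks and carry no read counts, so the depth behind each peak is unknown, and the paired input libraries were used only inside the authors' peak calls.

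N6-methyladenosine (m6A) is placed on nascent transcripts by a nuclear methyltransferase complex at adenosines in the DRACH context (D = A, G or T; R = A or G; H = A, C or T). In spliced messenger RNA the mark is best known from long internal exons and the surroundings of the stop codon. Intronic marks are read on pre-mRNA before splicing, on retained introns, or on other transcripts that start within the intron. Introns also hold most copies of the interspersed repeats of genes, among them LINE-1 (L1), a retrotransposon that encodes an RNA-binding protein and a reverse transcriptase in 2 open reading frames.

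Many intronic regions shared sequence with one another. The largest group of members joined by shared 25-base words held 1473 regions, and the next held 549. A consensus of 5356 nt was built from 694 genomic copies that carried the most frequent word of each group, 2815 nt apart. It carried open reading frames of 338 and 1275 codons, the lengths of the L1 frames. The element was thus picked for its frequency among these same regions. No repeat annotation was used here, so no subfamily was assigned, and the element is called L1-like below.

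Windows (hg38) that reach 50 bases to either side of the position of named intronic regions follow, 5′ to 3′ on the strand of the host gene and with DRACH motifs in capitals. They are shown as examples outside the L1-like element. The windows of the MTCP1 and CLIP4 regions, named below, held no DRACH motif on the host strand and are not shown. The regions in SLC35C1 and GOSR2 were called in all 10 libraries with high fold enrichment and lay in unique sequence.
SLC35C1, chr11:45804637-45804737, plus strand: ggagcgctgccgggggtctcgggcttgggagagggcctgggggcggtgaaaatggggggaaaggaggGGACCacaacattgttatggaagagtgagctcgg
GOSR2, chr17:46960097-46960197, plus strand: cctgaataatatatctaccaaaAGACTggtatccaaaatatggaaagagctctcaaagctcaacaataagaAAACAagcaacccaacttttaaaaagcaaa

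The second set was called in all 5 libraries of one line and in none of the other, TMEM43 in T24R2 and SMOX and MBP in T24.
TMEM43, chr3:14125356-14125456, plus strand: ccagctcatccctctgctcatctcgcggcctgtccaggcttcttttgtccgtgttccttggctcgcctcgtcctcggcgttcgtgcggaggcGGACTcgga
SMOX, chr20:4135913-4136013, plus strand: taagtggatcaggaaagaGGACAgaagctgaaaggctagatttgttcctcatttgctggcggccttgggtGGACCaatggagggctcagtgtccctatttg
MBP, chr18:77035277-77035377, minus strand: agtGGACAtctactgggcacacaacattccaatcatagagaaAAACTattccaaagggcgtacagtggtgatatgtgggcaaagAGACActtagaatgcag

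Intronic regions recurred less often between libraries than exonic ones. A single library called 3274 of the 8433 intronic regions (38.8%), and all 10 libraries called 621 (7.36%). Among exonic regions the corresponding shares were 21.3% and 31.7%, and among intergenic regions 39.6% and 6.12%. The median intronic region was called in 2 libraries, against 5 for exonic regions. In each library the share of intronic regions called was lower than that of exonic regions, by 22.7 ± 3.97 percentage points (SD, n = 10; lower in 10 of 10, two-sided exact sign-flip permutation test, adjusted p = 0.0026). This p is the smallest that the test allows before adjustment over 4 within-library comparisons.

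**Figure D1:**
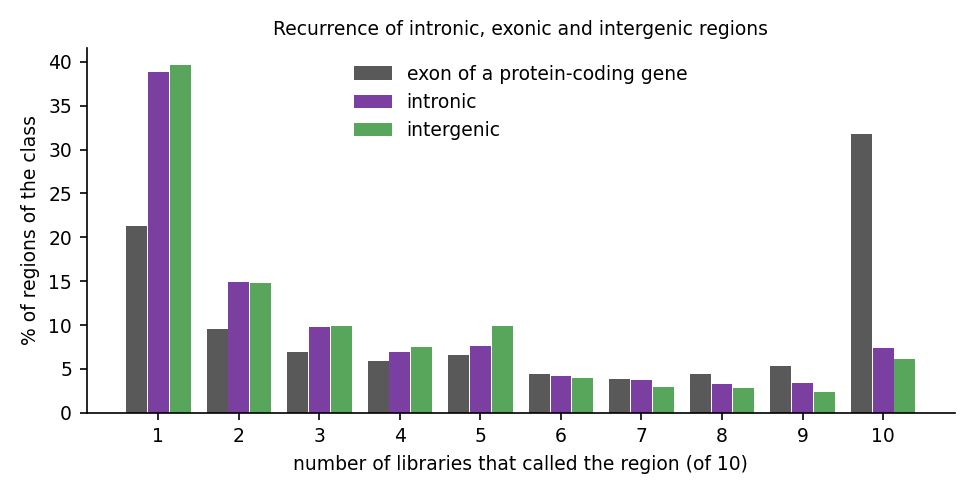
Bars give the percentage of intronic, exonic and intergenic regions (y axis) by the number of libraries, of 10, that called the region (x axis). Intronic and intergenic regions peaked at 1 library (38.8% and 39.6%), whereas exonic regions peaked at 10 (31.7%).

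Peaks inside introns were narrower than those in exons. The median peak in an intronic region was 97.7 ± 16.9 bp narrower than that in an exonic region of the same library (narrower in 10 of 10, exact sign-flip permutation test, adjusted p = 0.0026). Fold enrichment, the authors' ratio of immunoprecipitate over input at the summit, was ranked within each list as a percentile. Where a list had several peaks in a region, the highest value was used. The median percentile of intronic regions lay between 45.2 and 52.5 in the 10 libraries, and it differed from that of exonic regions by -2.19 ± 3.45 points (SD, n = 10; exact sign-flip permutation test, adjusted p = 0.10). The sign of this difference depended on the peaks kept, being 9.36 points in favour of introns among peaks with a −log10 q of at least 10 (p = 0.00195, exact sign-flip permutation test). Ranked by −log10 q instead of fold, intronic regions lay 22.7 points below exonic ones.

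T24R2 libraries called more intronic regions, without a test that separated the lines. The T24 libraries called 2964, 1590, 2291, 3109 and 2083 intronic regions, and the T24R2 libraries called 2964, 3202, 2699, 3521 and 4687. In T24R2, 3 libraries lay above every T24 library, and the others overlapped them. The means were 2407 ± 630 and 3415 ± 773 (SD, n = 5 each; two-sided exact permutation test, p = 0.056, adjusted p = 0.125 over 7 line comparisons). As a share of all regions a library called, introns took 15.6%, 10.6%, 12.5%, 15.05% and 11.8% in T24 and 13.5%, 14.7%, 12.8%, 14.4% and 15.3% in T24R2, ranges that overlapped fully (adjusted p = 0.34, exact permutation test). When every list was cut to its 17203 strongest peaks, the mean of T24R2 libraries was the lower one, with a difference of -136.8 intronic regions (p = 0.34, exact permutation test).

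**Figure D2:**
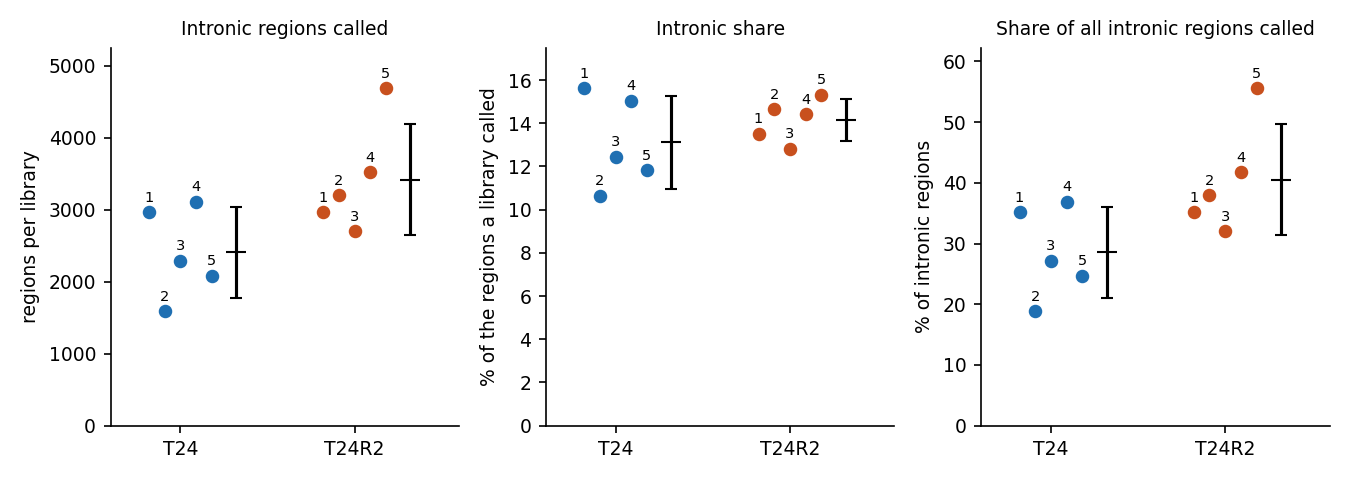
Points are the 10 libraries, numbered by replicate, with the mean and SD of each line in black. The panels give the number of intronic regions called (y axis, regions), their share of all regions called (%) and the share of the 8433 intronic regions called (%). The T24R2 means were higher in the first panel, and the lines overlapped in every panel.

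The intronic regions were spread over many host genes. A single protein-coding host could be assigned to 8114 regions, in 3806 genes, and 2098 of these genes (55.1%) held 1 region. At the other end 359 genes with 5 or more regions held 2537 regions (31.3%). Host genes were long, with a median of 110701 nt. Of the 8114 regions, 3808 (46.9%) lay in a gene that also had an exonic region called in all 10 libraries, and 1812 (22.3%) lay in 890 genes without an exonic region in any library. The share called in all 10 libraries was 7.59% in the first of these groups and 7.13% in hosts without such an exonic region.

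Regions lay in first as well as in later introns. Of the 6948 regions inside an intron of the canonical transcript, 1645 (23.7%) lay in the first intron, which held 22.5% of the canonical intronic bases of the host genes, and 653 (9.40%) lay in the last intron, which held 6.29% of the bases. The median region lay in an intron of 14592 nt, an intron counting once for each region it held. The median over the introns of the same genes was 2033 nt, and the length-weighted median was 37875 nt. In T24 the first intron held 24.9 ± 1.6% of called regions and in T24R2 23.9 ± 0.579% (SD, n = 5 each; adjusted p = 0.27, exact permutation test).

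Regions lay nearer to exons than intronic bases did. The median distance to the nearest exon of the host was 2284 nt, and 1190 regions (14.7%) lay within 100 nt of one, a zone that holds 2.58% of the intronic bases of these genes. Within 1000 nt the shares were 36.5% of regions and 18.5% of bases. The near-exon regions were lopsided. Of 958 regions within 100 nt of a flanking exon of the canonical transcript, 790 (82.5%) were nearer to the downstream exon, and 98.5% of these overlapped an exon with part of their span. In all, 1571 intronic regions (18.6%) touched an exon, and 6862 were clear of exons.

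Called regions were no closer to exons in either line by a test that survived adjustment. The median distance per library was 3016, 1925, 2340, 2512 and 1718 nt in T24 and 2001, 2158, 1930, 2000 and 1812 nt in T24R2 (adjusted p = 0.27, exact permutation test). The median intron length of called regions was 17170, 13744, 14474, 15324 and 12316 nt in T24, and 13064, 13178, 12183, 12826 and 12037 nt in T24R2. The mean difference of -1948 nt had p = 0.040 and adjusted p = 0.125 (exact permutation test), and T24 replicate 1 held the highest value on both measures. Without that library the difference in intron length was -1307 nt (p = 0.063), and with any 1 library left out it lay between -2520 and -1307 nt (p from 0.0079 to 0.095, exact permutation tests). It was -2591 nt with equal peak numbers and -1948 nt outside the L1-like element, each with p = 0.0079 (exact permutation test).

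A large part of the intronic regions lay in copies of the L1-like element. The position of 2816 regions (33.4%) fell inside a match to the consensus, whereas such matches covered 5.51% of the 1184.5 Mb of intronic bases of protein-coding genes. The element was picked for its frequency among these same regions, so this contrast is descriptive. The share was 35.5% for regions in introns of noncoding genes, 26.7% between genes and 0.452% in exons of protein-coding genes. Among members of the genes with most regions, 20 of 23 in DNAH14 and 15 of 16 in SEMA3A were L1-like, and 0 of 16 in SORCS2. L1-like regions recurred like the others, with 7.07% called in all 10 libraries against 7.51% of regions outside the element.

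The windows of these regions were repeated in the genome, which bears on their mapping because the authors kept uniquely mapped reads. In 2313 intronic regions (27.4%) the median 25-base word of the window occurred 10 or more times in hg38, and 86.9% of these lay in the L1-like element. Called intronic regions exceeded called exonic regions in this share by 27.9 ± 3.03 percentage points (SD, n = 10; higher in 10 of 10, exact sign-flip permutation test, adjusted p = 0.0023 over 6 comparisons, a measure added after the data had been seen). L1-like regions had a lower median fold percentile than other intronic regions in 10 of 10 libraries, by 1.98 ± 0.951 points (adjusted p = 0.0023, exact sign-flip permutation test), a difference that had p = 0.50 with equal peak numbers. The part of read placement in these values was not tested.

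Along the consensus the regions fell into a few narrow places. The words that anchored the consensus were picked for their frequency among these regions, so places that hold them were favoured by that choice. The stretch from nt 4286 to 4386 held 536 of the 2816 L1-like regions (19.03%) in 1.89% of the length, the stretch from nt 5037 to 5137 held 325 (11.5%), and that from nt 1467 to 1567 held 275 (9.77%). Each of these lay inside the frame of 1275 codons, apart from the last bases of the second, and the frame as a whole (nt 1296 to 5123) held 2623 regions (93.1%). The number of intronic copies rose from 2752 in the first bin of 200 nt to 29876 in the bin from nt 4801, with small dips on the way, and fell to 18441 in the last bin. Relative to copies, the bins from nt 1401 and nt 4201 held 53.3 and 36.2 regions per 1000 intronic copies, against 0.998 in the bin from nt 2601.

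**Figure D3:**
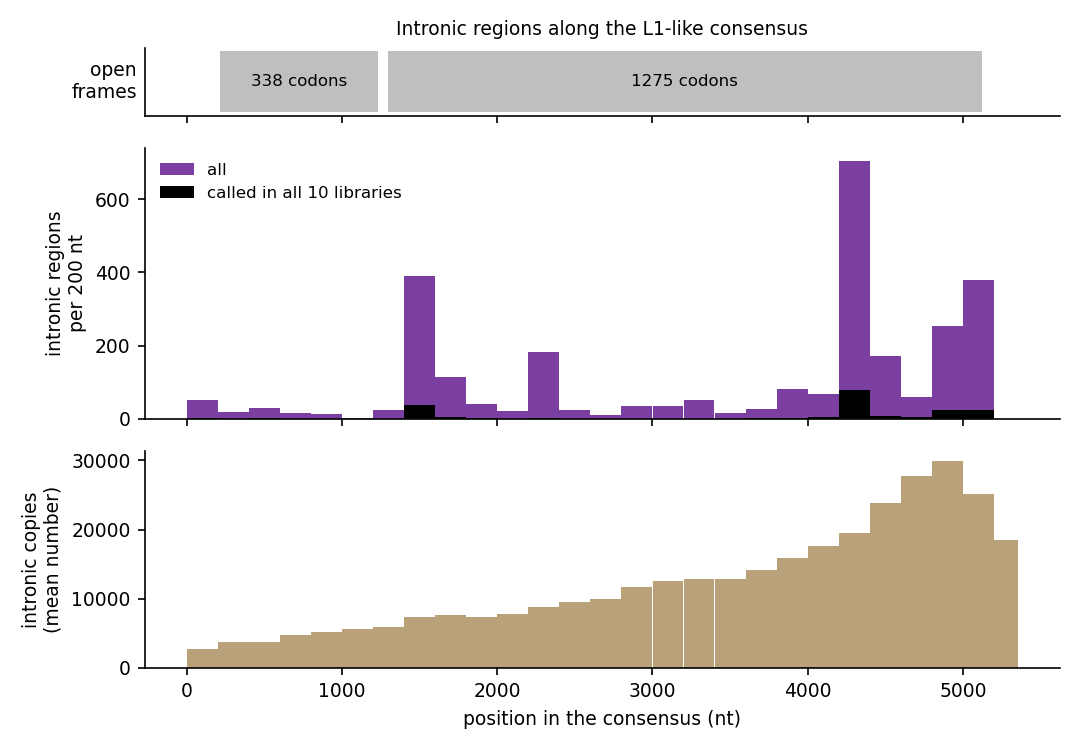
The x axis is the position in the L1-like consensus (nt). From top to bottom the panels show the open reading frames of 338 and 1275 codons, the number of intronic regions per 200 nt (all in purple, those called in all 10 libraries in black), and the mean number of intronic copies covering each bin. Regions concentrated in the bins from nt 1401, 4201 and 5001, while the number of copies was highest in the bin from nt 4801 and fell after it.

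The L1-like copies at the regions lay mostly in the orientation of their host gene. Orientation here is that of the genomic copy, and no strand of the RNA was taken from the peak lists. Of 2728 with a single host, 2260 (82.8%) had the element in the sense orientation and 468 in the antisense orientation, whereas only 33.5% of intronic L1-like bases were in the sense orientation. DRACH followed the strand of the element. A DRACH motif lay within 50 nt of the position on the host strand in 99.4% of sense copies, against 53.3% on the other strand, and in antisense copies the shares were 54.9% on the host strand and 99.2% on the other. Antisense copies were called in all T24R2 and no T24 libraries in 25 cases (5.34%), and sense copies in 23 (1.02%), against 3.02% of all merged regions. Calls in all T24 and no T24R2 libraries were found for 4 antisense copies (0.855%) and 14 sense copies (0.619%), against 1.05% of all.

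The sense orientation was less frequent in T24R2. Among L1-like regions called, it was 87.8%, 87.1%, 89.8%, 87.8% and 88.3% in the T24 libraries and 82.1%, 85.3%, 81.2%, 82.8% and 82.6% in the T24R2 libraries. Every T24R2 library lay below every T24 library. The means were 88.2 ± 1.02% and 82.8 ± 1.52% (SD, n = 5 each; two-sided exact permutation test, p = 0.0079, adjusted p = 0.036 over 9 line comparisons, chosen after the data had been seen), and the difference of -5.38 percentage points ranged from -6.00 to -4.97 when 1 library was left out. With equal peak numbers the difference was -7.12 percentage points. The L1-like share itself did not separate the lines (35.6 ± 5.54% in T24 and 33.3 ± 1.51% in T24R2, p = 0.40, exact permutation test), and it was 43.5% in T24 replicate 1 and between 29.3% and 37.0% in the others.

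DRACH was more frequent on the host strand of intronic regions as a whole. Of 7579 regions whose host genes lay on 1 strand, 87.3% had the motif within 50 nt on the host strand and 72.3% on the other strand. In exonic regions the shares were 88.5% and 71.9%. The intronic excess was not confined to the position. From 250 to 231 nt upstream, introns held 46.8 motifs per 100 regions on the host strand and 31.5 on the other. Exonic regions held 34.3 and 35.0 there. In the 20 nt around the position the values were 57.3 and 33.3 in introns, and 49.0 and 25.8 in exons. The part of flanking sequence composition in the intronic excess was not tested. The core GGAC was found in 37.2% of intronic windows on the host strand and 23.9% on the other, against 47.1% and 26.01% in exonic windows. Over the regions called in each library the excess of host over opposite strand was 17.5 ± 3.14 percentage points (SD, n = 10; positive in 10 of 10, exact sign-flip permutation test, adjusted p = 0.0026). Outside the L1-like element the excess was 9.01 points (p = 0.00195, exact sign-flip permutation test).

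The strand excess within 50 nt was smaller in T24R2. It was 21.8, 18.0, 22.3, 19.3 and 19.6 percentage points in the T24 libraries and 14.4, 16.2, 14.9, 15.2 and 13.6 in the T24R2 libraries, with no overlap. The mean difference of -5.36 points had p = 0.0079, the smallest that 5 against 5 libraries allow, and an adjusted p of 0.056 over 7 line comparisons (exact permutation test), which misses the threshold of 0.05. Outside the L1-like element the difference was -5.14 points, and with equal peak numbers it was -6.70 points, both with p = 0.0079 (exact permutation test). In exonic regions the excess ran from 19.7 to 20.8 points in T24 and from 17.3 to 19.6 points in T24R2.

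**Figure D4:**
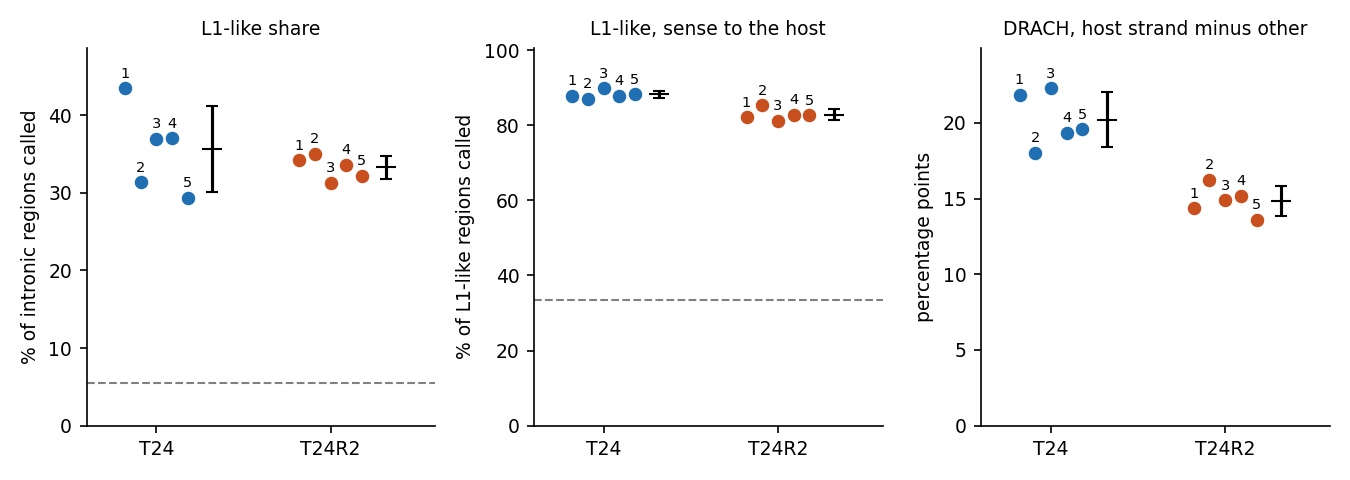
Points are the 10 libraries, numbered by replicate, with the mean and SD of each line in black. The panels give the L1-like share of called intronic regions (%), the share of these that were sense to the host (%), and the DRACH excess of the host strand (percentage points), and dashed lines give the corresponding shares of intronic bases (5.51% and 33.5%). T24R2 libraries lay below all T24 libraries for the share sense to the host and for the DRACH excess, and overlapped them for the L1-like share.

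The genes with the most intronic regions included several with few exonic regions. DNAH14, a dynein heavy chain gene on chromosome 1, held 23 regions in 11 of its 85 introns and no exonic region. Its regions were called 0, 0, 0, 1 and 0 times in the T24 libraries and 6, 11, 6, 13 and 11 times in the T24R2 libraries. FBXL13, an F-box gene, held 20 regions, of which T24 libraries called 0, 0, 0, 4 and 1 and T24R2 libraries called 10, 8, 5, 10 and 12. MEI4, a factor for meiotic DNA breaks, held 20 regions and no exonic region, and SORCS2, a sorting receptor gene, held 16. No T24 library called any of them, while T24R2 libraries called 5 to 9 in MEI4 and 5 to 11 in SORCS2. In these 4 genes the lines did not overlap with the full lists. With equal peak numbers the mean difference (T24R2 minus T24) fell from 9.2 to 2.4 regions in DNAH14 and from 8 to 3 in FBXL13. It fell from 6.6 to 1.6 in MEI4 and from 6.6 to 2.8 in SORCS2. The lines were then no longer fully apart in FBXL13 and MEI4.

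ADAMTS6, which encodes a secreted metalloprotease, ran the other way. Of its 17 regions T24 libraries called 13, 10, 11, 12 and 11, and T24R2 libraries called 3, 4, 2, 5 and 4. The mean difference was -7.8 regions, and -6.6 with equal peak numbers. TTC28 held 17 regions, 3 of them called only in T24R2, and SEMA3A, a secreted guidance factor, held 16. In TTC28 the lines overlapped at 3 to 8 against 6 to 8, and in SEMA3A at 4 to 10 against 9 to 12. DLG2 (a synaptic scaffold) and PRKCZ (an atypical protein kinase C) held 15 each, with ranges of 0 to 2 against 1 to 9 and 1 to 3 against 3 to 10.

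Among all 359 genes with 5 or more intronic regions, the number called was higher in every T24R2 library than in any T24 library in 53 genes (14.8%), and higher in every T24 library in 14 (3.9%). A gene could reach 5 regions through calls in 1 line alone, as MEI4 and SORCS2 did. In DNAH14 the T24 libraries added only 1 call. These counts are therefore given as a description with no test. With equal peak numbers the counts were 25 and 23. In peak lists a gene with less transcript and a gene with less methylation cannot be told apart, and the abundance of these transcripts was not analysed here.

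**Figure D5:**
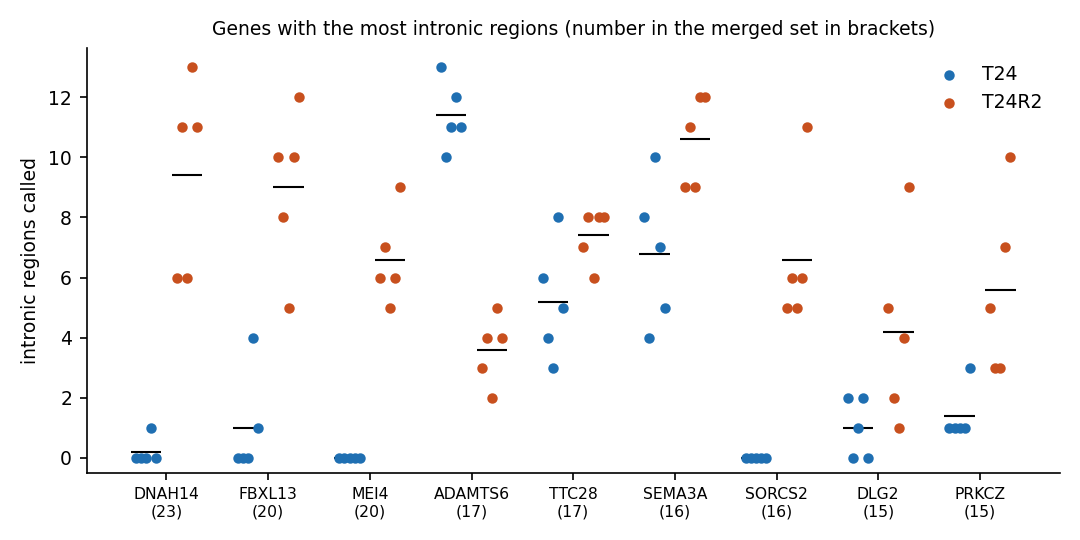
Points are single libraries of T24 (blue) and T24R2 (orange), bars are means, and the y axis is the number of intronic regions called in each gene. The number of merged intronic regions of a gene stands in brackets. DNAH14, FBXL13, MEI4 and SORCS2 were higher in all T24R2 libraries and ADAMTS6 was higher in all T24 libraries.

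The 10 introns with most regions differed widely in length. Intron 11 of MAMDC2 (47.7 kb) held 13 regions, and intron 3 of KCNG2 (34.7 kb), intron 4 of MEI4 (94.0 kb) and intron 25 of TBCK (48.8 kb) held 10 each. Those with 9 regions were intron 2 of CDH4 (488.6 kb), intron 5 of SMYD3 (397.3 kb), intron 2 of FARP1 (130.3 kb), intron 6 of KIAA1328 (107.5 kb), intron 16 of PRKCZ (9.27 kb) and intron 11 of KIF7 (8.32 kb).

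Regions found throughout were led by SLC35C1. This gene encodes the Golgi transporter of GDP-fucose, and its region (chr11:45804350-45806541, reaching into an exon) had fold enrichments of 21.3, 20.4, 22.4, 24.3 and 22.6 in T24 and 19.3, 20.9, 21.8, 29.4 and 27.2 in T24R2. Its lowest percentile in any list was 97.4. GOSR2, a Golgi SNARE, followed with folds of 20.7, 11.3, 19.5, 17.2 and 14.2 in T24 and 16.9, 20.5, 15.6, 22.6 and 20.1 in T24R2. Its region was clear of exons, 3550 nt from the nearest.

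Others in this group were regions in MTCP1, TPPP (a tubulin-binding protein), HRH1 (the histamine H1 receptor), CFAP210, SCYL3, C11orf80 and COL18A1 (a basement membrane collagen). Their mean percentiles ran from 94.8 to 95.6 and their folds from 10.3 to 29.4. C11orf80 was the L1-like member among them, with folds of 23.4, 22.4, 25.3, 14.8 and 22.5 in T24 and 27.7, 10.3, 18.3, 18.8 and 17.0 in T24R2. The TPPP region spanned 4218 bp and reached into an exon. Not all summits of the TPPP and SLC35C1 regions lay in introns, so their folds may come from a peak outside an intron. For the regions of this group the values chose the members, and no test of the lines is given.

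The shares of line-specific regions among intronic regions were near those of the whole set. T24R2-only regions, called in 5 of 5 T24R2 and 0 of 5 T24 libraries, numbered 246 of 8433 (2.92%), against 3.02% of all merged regions. T24-only regions numbered 77 (0.913%), against 1.05% of all. No region passed Fisher's exact test after adjustment over the 43676 regions, where 5 against 5 libraries give a smallest adjusted p of 0.20, and 743 intronic regions (8.81%, against 9.21% of all regions) had an unadjusted p under 0.05. With equal peak numbers the counts were 103 and 96, with 88 and 52 regions in common with the full lists. T24R2-only regions thus fell from 76.2% to 51.8% of the line-specific intronic regions. Over all line-specific merged regions they fell alike, from 74.3% to 52.7%. In hosts with an exonic region called in all 10 libraries, the T24R2-only regions numbered 84 (2.21%) and the T24-only regions 29 (0.762%).

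Among those hosts the T24R2-only regions with the highest lowest percentile were in CLIP4, TMEM43, DENND2A, PMFBP1 and DLG2. The CLIP4 region, in intron 2 of a CAP-Gly linker gene, had folds of 18.0, 23.2, 16.8, 12.6 and 15.8. The TMEM43 region, in intron 1 of an inner nuclear membrane protein gene and reaching into an exon, had 14.3, 13.3, 9.98, 12.2 and 13.5. Not all summits of the TMEM43 region lay in introns. In intron 14 of DENND2A, where the L1-like copy lies opposite to the host gene, the folds were 10.4, 11.8, 10.2, 13.8 and 11.1. PMFBP1 and DLG2 ranged from 8.74 to 10.2 and from 8.89 to 12.8, and DENND2A, PMFBP1 and DLG2 were L1-like.

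The T24-only regions chosen in the same way were in SMOX, MBP, PLA2R1, ADAMTS6 and ANKRD12. SMOX, the spermine oxidase gene, had folds of 15.2, 16.1, 17.5, 11.2 and 16.6. MBP, which encodes myelin basic protein and longer Golli forms, had 22.8, 10.3, 10.1, 16.1 and 9.65 in intron 3. The PLA2R1 region in intron 11 had 18.5, 8.64, 9.94, 10.0 and 8.69, and replicate 1 stood apart. ADAMTS6 (intron 23) ranged from 8.08 to 13.1 and ANKRD12 (intron 10) from 6.68 to 12.7, the second in an L1-like copy.

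In the transcripts that the study chose for follow-up, intronic regions numbered 25 in 8 of 15 genes, and 7 were T24R2-only and 3 T24-only, where 3.02% and 1.05% of all merged regions were specific to these lines. The study picked these transcripts on the same libraries, so their counts are not independent evidence. ANO9, a member of the anoctamin family of membrane proteins, held 10 of the 25, in introns 1 and 15 of 22. In intron 15, the region chr11:419863-422786 was called in every library, with folds of 6.53, 8.03, 12.4, 9.28 and 4.77 in T24 and 9.69, 24.8, 11.04, 19.8 and 24.1 in T24R2, ranges that overlapped. Its neighbour chr11:424636-425071 was called in T24R2 alone (7.02, 9.56, 8.62, 11.1 and 12.1). In intron 1, chr11:433219-435071 had T24R2 folds of 9.69, 10.2, 9.57, 17.8 and 13.6 and chr11:440448-441392 had 11.3, 14.2, 6.35, 16.7 and 13.8, neither being called in T24.

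Intron 1 of ANO9 also held regions called in 1, 3, 4 and 2 T24R2 libraries, with folds between 3.91 and 8.37. PLA2R1, the phospholipase A2 receptor gene, showed the opposite order. Its region in intron 2 at chr2:160042802-160042979 was called in T24 alone (10.7, 8.53, 11.8, 5.03 and 5.17), and the neighbouring chr2:160044196-160045005 had 13.1, 16.4, 6.98, 25.3 and 12.9 in T24 and 8.85, 7.12, 10.6 and 9.39 in 4 T24R2 libraries. FUT8, a fucosyltransferase, had a T24-only region in intron 6 (6.62, 10.8, 7.48, 8.13 and 9.45), and its window is repeated in the genome, with a median word at 643 copies. OSBP2 (intron 12) and POLRMT (the mitochondrial RNA polymerase, intron 1) had T24R2-only regions with folds of 5.65 to 10.0 and 3.83 to 12.3. The POLRMT region, whose position lay 9 nt from an exon, reached into an exon, as did the PLA2R1 region from position 160044196 and the ANO9 regions from positions 419863, 433219 and 440448. Of these, all but the ANO9 region from position 433219 had some summits outside introns.

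Few regions changed in rank between the lines where both had a peak. Within the 9577 merged regions called in all 10 libraries, 621 were intronic, and the percentile rank of fold enrichment among the 9577 was compared with limma. It was higher in T24R2 in 4 intronic regions (0.644%, against 0.689% of all) and higher in T24 in 6 (0.966%, against 0.501% of all), at an adjusted p under 0.05. An unadjusted p under 0.05 was found in 104 intronic regions (16.7%, against 13.8% of all). On simulated ranks for this comparison, 68% of changes of 60 points and 8% of changes of 30 points were recovered over 9577 regions. Of 9377 regions without a planted change, 9 were called falsely. With the replicate block 1 and 2 intronic regions remained, together 0.483% of those tested against 0.0835% of all.

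The regions higher in T24R2 were in ASAH2B, PPA2 (a mitochondrial pyrophosphatase), SMAD1 (a transducer of BMP signalling) and BRD9 (a subunit of a SWI/SNF chromatin remodeller). The ASAH2B region lay in an L1-like copy, and its rank was 43.2, 33.0, 26.4, 14.9 and 19.96 in T24 and 93.1, 89.8, 82.5, 90.7 and 88.6 in T24R2, a difference of 61.4 ± 7.18 points (SE). SMAD1, in the first intron, moved from 45.8 ± 12.4 to 92.7 ± 6.25 (SD, n = 5 each), and its region and that of PPA2 touched an exon.

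Of the regions higher in T24, that in the first intron of PCYT1A, the gene for the rate-limiting enzyme of phosphatidylcholine synthesis, changed most. Its rank was 94.3, 90.1, 98.8, 97.5 and 93.9 in T24 and 15.3, 22.5, 16.4, 37.0 and 24 in T24R2, and the region reached into an exon. TFDP1, the partner of E2F factors, moved from 78.6 ± 10.5 to 24.4 ± 4.94 in its second intron, 10938 nt from an exon. ASH1L, a histone H3 lysine methyltransferase, and NUP214, a nucleoporin, followed with differences of -49.9 and -47.1 points, and a region on chromosome 16 that several genes share had -64.9 points. Every library of one line ranked above every library of the other for ASAH2B, PPA2, SMAD1, BRD9, PCYT1A, TFDP1, ASH1L and NUP214. The same ranks chose these regions, so this separation is a description and adds no evidence.

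In the other 7 gene lists the intronic regions specific to a line numbered 0 to 2 a list, beside the 3.02% and 1.05% of all merged regions. Of 22 writers, readers and erasers of m6A, 8 held 12 regions, of which 1 was called in all 10 libraries. FTO, an m6A demethylase, had a T24R2-only region in intron 7 with folds of 13.6, 9.50, 16.8, 14.6 and 5.53, the only line-specific region of this list. Among chromatin regulators mutated in bladder cancer, 7 of 20 genes held 14 regions. A T24-only region in intron 2 of CHD7 (11.8, 6.14, 9.98, 13.2 and 5.81) lay in an L1-like copy.

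Genes at common fragile sites, which are very long, held the most: 71 regions in 18 of 24 genes, of which 37 were called in 1 library, 44 were L1-like and 2 (in DLG2 and NAALADL2) were T24R2-only. The platinum adduct and crosslink repair list held 42 regions in 14 of 38 genes, with 5 called in all 10 libraries and none specific to a line. Splicing factors and kinases (8 regions), receptor tyrosine kinases and RAS signalling (22) and cytoskeleton and adhesion genes (29) had none either.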

How the data were processed

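m6A-containing RNA was immunoprecipitated and sequenced with its input, and 10 of 20 samples (the immunoprecipitates) had a peak list. Per the labels and the study's methods, the authors aligned reads to hg38 with STAR 2.7.0, kept uniquely mapped, non-duplicate reads with SAMtools 1.10, and called peaks of each library over its input with MACS2 3.0.0a6. The deposited lists give a fold enrichment (ratio), a score, and −log10 p and −log10 q values, all at a −log10 q of 2.00 or more. The deposited merged set, made over all lists, gives only region bounds, used as the authors' pooled coordinates. No count was given, so depth is unknown and no interval from counting was computed.

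Each peak was assigned to its merged region, and positions were set against GENCODE v44 (GRCh38), not the v39 of the study. Canonical transcripts gave intron rank. DRACH was searched within 50 nt on both strands. Word copy numbers were counted in hg38, and the consensus was matched with blastn 2.17.0 (e-value 1e-10). Line comparisons used two-sided exact permutation tests of library values, within-library comparisons used exact sign-flip tests, and ranks were compared with limma 3.58.1, with Benjamini-Hochberg adjustment. Code was tested on simulated data.

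The members and gene lists were chosen with earlier results of these data known. Named genes were, by rule, the 10 with most regions (ties by name), the 10 strongest regions called in all libraries, 5 line-specific regions a direction in hosts with an exonic region in all libraries, up to 5 limma calls a direction, list genes with a line-specific region, and the study's transcripts. Some of the items this rule gives are not reported here. Genes with most regions by intron were named after their values were seen. Replicate numbers are shared between the lines, but same-numbered libraries deviated together little (correlations of -0.036 to 0.112 of rank deviations), so the block was kept as an alternative. Other alternatives were stricter peaks, equal peak numbers, fuller overlap, other transcripts, motifs and windows, leaving out each library, and, added after the data had been seen, members clear of exons, outside the L1-like element, or called in at least 2 libraries.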

Additional observations from a re-analysis of the deposited data

Results flagged for a closer look

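In groups of 5 libraries, 94 sets of values were searched for a library far from the other 4, and 13 were found. Chance flags about 1 in 20 sets of continuous values. That rate does not hold for small counts, where a lone differing value is always flagged, so the 13 cannot be read against it. Among counts of called regions, T24 replicate 4 stood apart in DNAH14 (1 region, the others 0) and in FBXL13 (4, the next 1), T24 replicate 5 in PRKCZ (3, the others 1) and T24R2 replicate 5 in SORCS2 (11, the next 6).

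Among fold percentiles, T24 replicate 2 was low for the GOSR2 region (85.8, the next 94.5) and the HRH1 region (83.6, the next 96.3). T24R2 replicate 2 was low for MTCP1 (89.8, the next 97.8) and for C11orf80 (72.2, the next 95.8). T24 replicate 4 was low for C11orf80 (91.7, the next 98.7).

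For PLA2R1, T24 replicate 1 was high in the intron 11 region (95.8, the next 75.5), and T24 replicate 3 was low in the intron 2 region called in both lines (42.9, the next 86.2). For ANO9, T24R2 replicate 4 was high in the intron 1 region from position 436401 (94.6, the next 56.2), and T24R2 replicate 3 was low in that from position 440448 (49.3, the next 85.3).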

How the results depend on the processing

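When peaks with a −log10 q under 10 were dropped, the line difference (T24R2 minus T24) in fold percentile was 0.93, intronic minus exonic was 9.36, L1-like minus other was 0.32, and line-specific regions numbered 108 and 36 (T24R2-only and T24-only). T24R2-only regions were then 75% of the line-specific intronic regions, against 78.9% of all line-specific regions. With equal peak numbers, line differences were -136.8 intronic regions, -1.41 percentage points in intronic share (p = 0.040, exact permutation test), 2.60 in fold percentile, 0.025 in first intron share, -514 nt in distance (p = 0.024, exact permutation test) and -4.94 in L1-like share (p = 0.040, exact permutation test). Fold percentile was then 2.79 intronic minus exonic and -0.86 L1-like minus other, and 103 regions were T24R2-only. With peaks covering at least 50% of the region these percentile differences were -5.04 and -0.12, and line-specific regions numbered 126 and 31. T24R2-only regions were 80.3% of these, against 82.9% of all line-specific regions at this setting. At 4 of 5 against at most 1 of 5 libraries the numbers were 666 and 222. No share over all regions is given for them, so they do not show anything particular to introns. In hosts with an exonic region in all libraries they were 84 and 29 (2.21% and 0.762%, against 3.02% and 1.05% of all merged regions). The line difference in intron length was -1594 nt for members with all summits outside exons, -1256 nt for those clear of exons and -1747 nt by the transcript with the longest coding sequence, each with p over 0.05 (0.056, 0.14 and 0.056, exact permutation tests). Outside the L1-like element the lines differed by 752.2 regions (p = 0.024) and 1.07 percentage points of share (p = 0.048), and among regions called in at least 2 libraries by 789.6 (p = 0.032, exact permutation tests). By −log10 q percentile, intronic minus exonic was -22.7. On this measure limma called 14 and 35 intronic regions, together 7.89% of those tested against 3.58% of all regions tested. Over members called in all 10 libraries the line difference in fold percentile was 3.28.

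With the replicate block, 5 pairs give a smallest p of 0.0625. The differences in intron length (-1948 nt), DRACH excess (-5.36) and sense share (-5.38) then no longer had an unadjusted p under 0.05. Without the block, only the sense share among these had an adjusted p under 0.05. With the block limma called 1 and 2 intronic regions, together 0.483% of those tested against 0.0835% of all. The block changed no other call. With 1 library left out, the line difference in intronic regions ranged from 689.1 to 1186.1, in fold percentile from -3.83 to -2.26 and in intron length from -2520 to -1307 nt. Line-specific intronic regions then numbered 254 to 322 and 80 to 106. No share over all merged regions is given for these counts, so they do not show anything particular to introns. Among intronic regions limma called 2 to 7 higher in T24R2 and 3 to 6 higher in T24. Over all 9577 regions limma then called 22 to 54 and 13 to 41. The cause of these changes was not tested. The share of repeats by soft masking was not run, since the reference is in upper case throughout.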
